A study of Arabidopsis thaliana with 24 samples.

Results

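The genes described here are the 10 loci of the core indole glucosinolate pathway of Arabidopsis thaliana and its MYB regulators, taken by locus identifier out of 32678 loci in the deposited count table. They are the regulators MYB34 (AT5G60890), MYB51 (AT1G18570) and MYB122 (AT1G74080), and the enzymes CYP79B2 (AT4G39950), CYP79B3 (AT2G22330), CYP83B1 (AT4G31500), SUR1 (AT2G20610), UGT74B1 (AT1G24100), SOT16 (AT1G74100) and CYP81F2 (AT5G57220). Messenger RNA was sequenced from seedlings of the cpd mutant and of the bri1-701 brl1 brl3 triple mutant, each at 7 or 24 days of age and each left untreated or given brassinolide (BL), with 3 libraries in each of the 8 groups. The cpd mutant lacks the function of CPD, a cytochrome P450 of brassinosteroid synthesis, but keeps the receptors. The triple mutant is defective in the receptor BRI1 and in its homologues BRL1 and BRL3. No wild type library was analysed here, so the reference state throughout is a hormone-deficient mutant, and neither the BL dose nor how long it was applied is stated in the labels.

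Indole glucosinolates are sulfur-rich defence compounds of the cabbage order that are made from tryptophan and are split by myrosinases into toxic products when tissue is damaged. CYP79B2 and CYP79B3 convert tryptophan to indole-3-acetaldoxime, a branch point that also feeds the phytoalexin camalexin and auxin. CYP83B1 oxidises the oxime, the product is conjugated with glutathione, the C-S lyase SUR1 releases a thiohydroximate, the glucosyltransferase UGT74B1 adds glucose, and the sulfotransferase SOT16 completes the core structure. CYP81F2 then hydroxylates the indole ring, a step needed for defence against fungi and for flagellin-triggered callose deposition. MYB34, MYB51 and MYB122 are R2R3 MYB transcription factors that activate these enzyme genes, with MYB51 known as the leading regulator in shoots and MYB34 in roots.

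The deposited table held 10180880 to 12531699 counts in each 7-day library and 17243503 to 20563151 in each 24-day library. Levels are given as normalised CPM (counts relative to library size, scaled with TMM factors over all 24 libraries), as mean ± SD with n = 3. Differences are log2 fold changes with a standard error (SE) and an adjusted p (edgeR's quasi-likelihood test, Benjamini-Hochberg method, adjusted over every gene tested), and a gene was counted as changed where adjusted p was under 0.05. Libraries of a 7-day group lay close to counting error (chi-square per degree of freedom 1.13 to 1.51), whereas those of a 24-day group differed more (6.38 to 59.1), so small differences pass the test at 7 days that cannot at 24 days. In the untreated 7-day triple mutant the BRI1 transcript stood at 48.9 ± 1.7 CPM against 171 ± 5.5 CPM in cpd, and BRL3 at 2.82 ± 0.32 against 39.4 ± 3.5 CPM. The summed level of 10 root marker genes was 2.02 to 4.26 CPM in the 7-day libraries, with the root hair gene COBL9 at 0 counts in every 7-day group, and 9.95 to 24.8 CPM at 24 days, where it was highest in replicate 3 of every group. The labels give the tissue as seedling at both ages, and at 7 days root-defining transcripts were close to absent. In such bulk samples fewer cells of a type and less RNA per cell cannot be told apart.

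All 10 genes match their symbol in the RefSeq annotation of TAIR10.1, and none overlaps another annotated gene. The closest neighbours lie 35 bases from CYP79B2 and 36 bases from CYP81F2, and whether counting used strand is not stated in the labels. Among paralogues, the exons of CYP79B2 and CYP79B3 share identical runs of at most 32 bases, and SOT16 shares at most 32 bases with SOT18 and 29 with SOT17, both of the aliphatic branch. The 250 bases before the annotated start were read from RefSeq TAIR10.1 for each gene and searched on both strands for elements bound by factors of hormone and stress signalling. These were the G-box CACGTG (present in 6.49% of 27443 windows of this length), the brassinosteroid response elements CGTGTG (5.37%) and CGTGCG (1.57%), the W-box core TTGAC (44.9%), the ABI4 element CACCG (11.5%) and the MYB element ACCTACC (1.16%), and none of these overlapped each other in the windows of the 10 genes. The windows of MYB51 and MYB122 are shown because MYB122 fell most with BL and MYB51 was the most abundant of the regulators, with matches in capitals.
MYB51, TAIR10.1 chr1:6389149-6389398, plus strand: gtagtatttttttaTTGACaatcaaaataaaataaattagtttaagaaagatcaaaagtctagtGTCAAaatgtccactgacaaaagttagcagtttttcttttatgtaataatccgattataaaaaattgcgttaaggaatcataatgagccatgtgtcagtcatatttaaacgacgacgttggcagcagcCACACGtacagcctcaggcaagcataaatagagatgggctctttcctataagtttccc
MYB122, TAIR10.1 chr1:27855328-27855577, plus strand: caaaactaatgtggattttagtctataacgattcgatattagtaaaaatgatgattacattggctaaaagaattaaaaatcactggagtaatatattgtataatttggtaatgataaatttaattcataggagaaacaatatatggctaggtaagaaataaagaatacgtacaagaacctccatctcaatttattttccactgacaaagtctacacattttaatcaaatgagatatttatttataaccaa
The MYB51 window holds CGTGTG, read here as its reverse complement CACACG, 58 bases before the start, and the W-box core 236 and 186 bases before it, whereas the MYB122 window holds none of the elements searched. SUR1 was the only gene of the 10 with a G-box, 50 bases before its start, and CYP81F2 and SUR1 each hold a pair of W-box cores. The other 6 windows hold none of these letters.

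The paralogues CYP79B2 and CYP79B3 catalyse the same step and are shown because they differed in their response to BL. Capitals mark the runs of at least 15 bases that the 2 windows share.
CYP79B2, TAIR10.1 chr4:18524792-18525041, plus strand: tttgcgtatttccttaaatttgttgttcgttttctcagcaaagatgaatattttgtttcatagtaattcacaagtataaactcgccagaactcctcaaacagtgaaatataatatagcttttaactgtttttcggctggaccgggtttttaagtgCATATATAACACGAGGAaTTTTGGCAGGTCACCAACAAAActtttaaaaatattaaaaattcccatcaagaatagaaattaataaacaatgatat
CYP79B3, TAIR10.1 chr2:9488163-9488412, plus strand: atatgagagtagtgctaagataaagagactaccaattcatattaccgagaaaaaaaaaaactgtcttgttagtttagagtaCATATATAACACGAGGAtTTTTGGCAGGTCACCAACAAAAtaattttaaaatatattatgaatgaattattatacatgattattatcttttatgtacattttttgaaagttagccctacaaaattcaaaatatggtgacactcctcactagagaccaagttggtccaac
The windows share a run of 17 bases and, after a base that differs, a run of 22 bases. This stretch lies 95 to 56 bases before the start of CYP79B2 and 169 to 130 bases before that of CYP79B3. The longest run shared by any of the other 44 pairs of windows among the 10 genes was 13 bases.

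In untreated 7-day cpd the pathway was transcribed at every step, and SOT16 and CYP83B1 stood highest. Per kilobase of exon, the mean level was 503 CPM for SOT16, 295 for CYP83B1, 82.9 for UGT74B1, 71.2 for CYP81F2, 42.9 for SUR1, 27.9 for CYP79B2 and 11.6 for CYP79B3. Among the regulators MYB51 stood at 130 CPM per kilobase, MYB122 at 37.4 and MYB34 at 0.942. MYB34, the regulator known from roots, was thus barely detected, with 5 to 25 counts in a 7-day library.

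**Figure D1:**
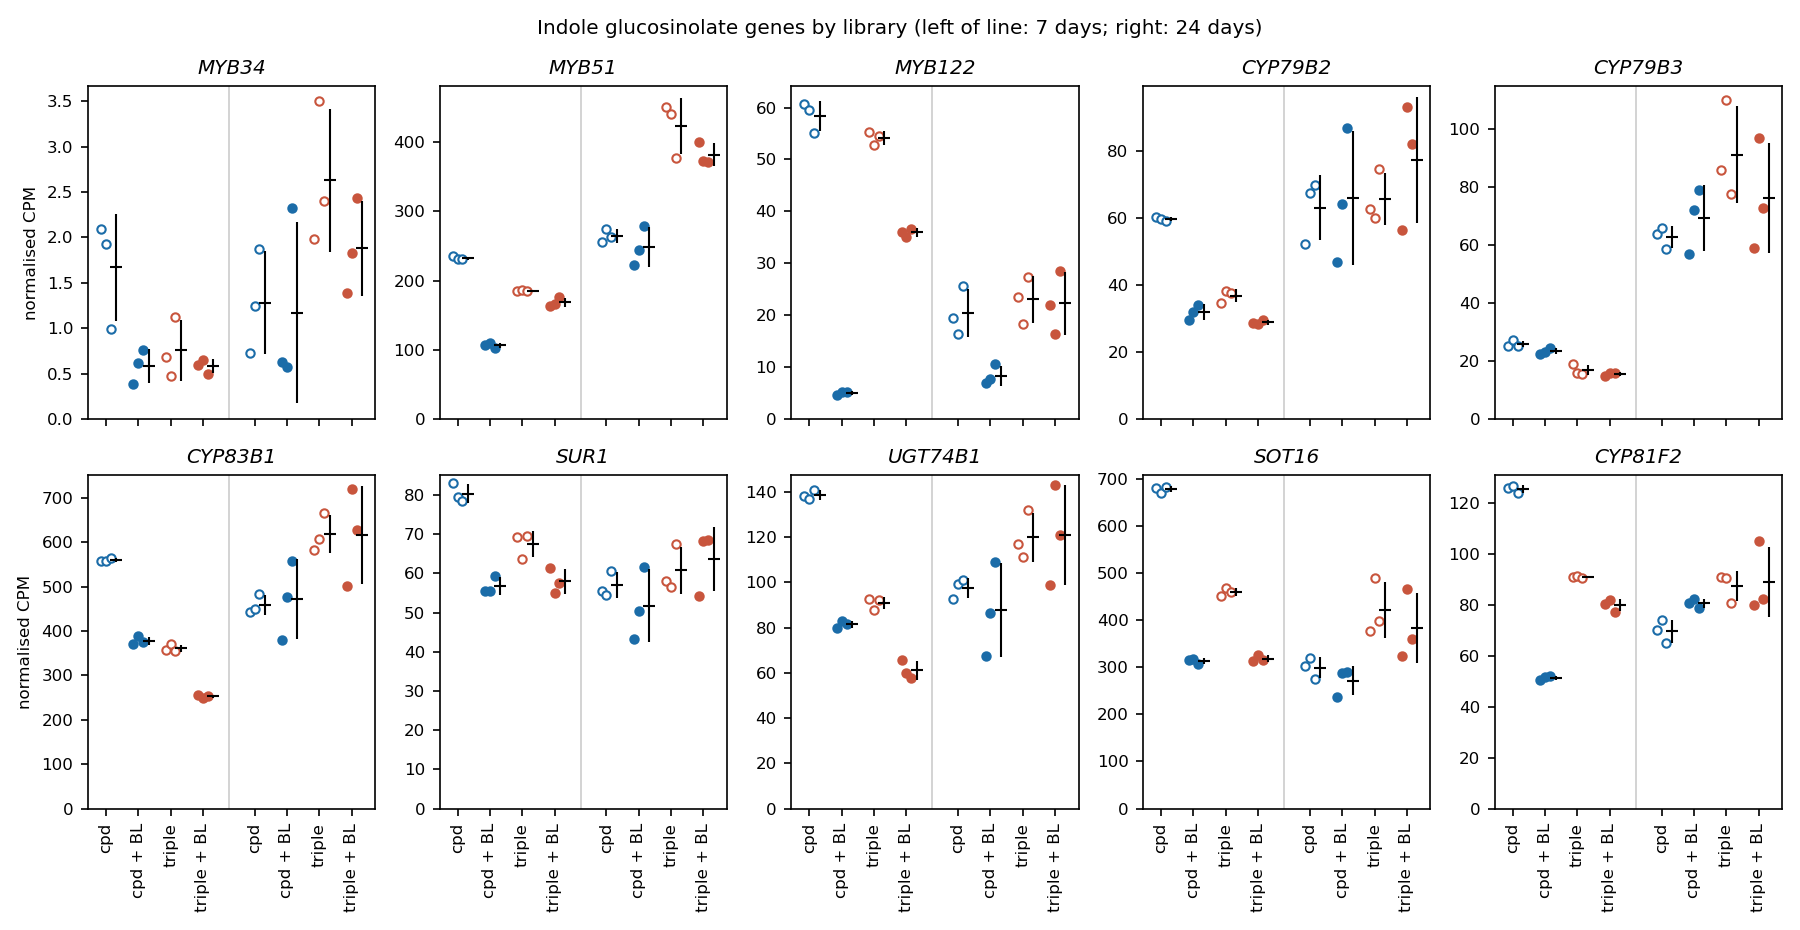
Normalised CPM of the 10 genes in each of the 24 libraries, 1 panel per gene with its own axis from 0; open circles are untreated and filled circles BL-treated libraries of each genotype, left of the line at 7 days and right of it at 24 days. In cpd at 7 days MYB122 goes from 55.1 to 60.6 CPM without BL to 4.65 to 5.27 CPM with it, while CYP79B3 stays between 22.6 and 27.3 CPM.

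BL lowered nearly the whole pathway in 7-day cpd seedlings, and MYB122 most. MYB34 passed the filter on low counts only through the untreated cpd libraries, so its fall is a description and is left out of the count that follows. Of the other 9 genes 8 fell at adjusted p under 0.05 and none rose, against 29.5% of all 18378 genes tested that fell and 27.7% that rose, and 4 of the 8 fell at least 2-fold. The median log2 fold change of all 10 genes was -1.02 and that of all genes tested -0.002, given as a description.

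MYB122 read 60.6, 59.5 and 55.1 CPM in the untreated cpd libraries and 4.65, 5.27 and 5.23 CPM in the BL-treated ones. Every treated library lay far below every untreated one, an 11.6-fold fall (log2 -3.54 ± 0.08, adjusted p = 2.43e-48), and 18 of the 18378 genes tested fell further. MYB51 read 235, 231 and 231 CPM without BL and 107, 110 and 103 CPM with it. Its fall of 2.18-fold (log2 -1.13 ± 0.03, adjusted p = 1.1e-42) was smaller than that of MYB122 although MYB51 was the more abundant transcript. The level of MYB51 per kilobase was therefore 3.39 to 3.67 times that of MYB122 in untreated cpd libraries and 17.2 to 20.2 times in BL-treated ones. MYB34 read 2.09, 1.93 and 0.998 CPM without BL and 0.387, 0.62 and 0.759 CPM with it, on few counts in both groups.

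The step from tryptophan to the oxime was split between its paralogues. CYP79B2 read 60.2, 59.7 and 59.2 CPM without BL and 29.5, 32.1 and 34.1 CPM with it, a fall of 0.91 ± 0.06 on the log2 scale (adjusted p = 8.24e-24). CYP79B3 read 25.2, 27.3 and 25.3 CPM without BL and 22.6, 23.0 and 24.6 CPM with it. The ranges of CYP79B3 did not overlap, but its difference of -0.15 ± 0.07 (95% interval -0.30 to 0.00) missed the threshold at adjusted p = 0.0718, and passed it only without replicate 3 of BL-treated cpd (-0.19, adjusted p = 0.0456). Per kilobase, CYP79B2 stood at 2.29 to 2.5 times CYP79B3 in untreated cpd and at 1.37 to 1.46 times with BL.

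Of the core enzymes, SOT16, which adds the sulfate, fell most. It read 681, 671 and 684 CPM without BL and 316, 317 and 306 CPM with it (log2 -1.12 ± 0.03, adjusted p = 2.95e-49). The glucosyltransferase gene UGT74B1 went from 139 ± 2.0 to 81.5 ± 1.7 CPM (-0.77 ± 0.04, adjusted p = 1.4e-28). CYP83B1 went from 560 ± 5.1 to 378 ± 8.7 CPM (-0.57 ± 0.03, adjusted p = 9.62e-32), and the C-S lyase gene SUR1 from 80.4 ± 2.3 to 56.8 ± 2.2 CPM (-0.51 ± 0.05, adjusted p = 3.33e-15). For these 4 genes each treated library was below each untreated one. CYP81F2, which modifies the finished indole glucosinolate, read 126, 127 and 124 CPM without BL and 50.6, 51.6 and 52.0 CPM with it. Its fall of 2.45-fold (log2 -1.29 ± 0.04, adjusted p = 3.4e-40) exceeded that of every enzyme of the core pathway. With the wider spread of the 24-day libraries held fixed in place of that at 7 days, edgeR's likelihood-ratio test was used. The same 8 genes besides MYB34 passed it, the largest adjusted p among them being 0.00535 for SUR1. Over all genes it called 2623 lower, against 5426 by the main test. Results given below with the 24-day spread come from the likelihood-ratio test too.

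**Figure D2:**
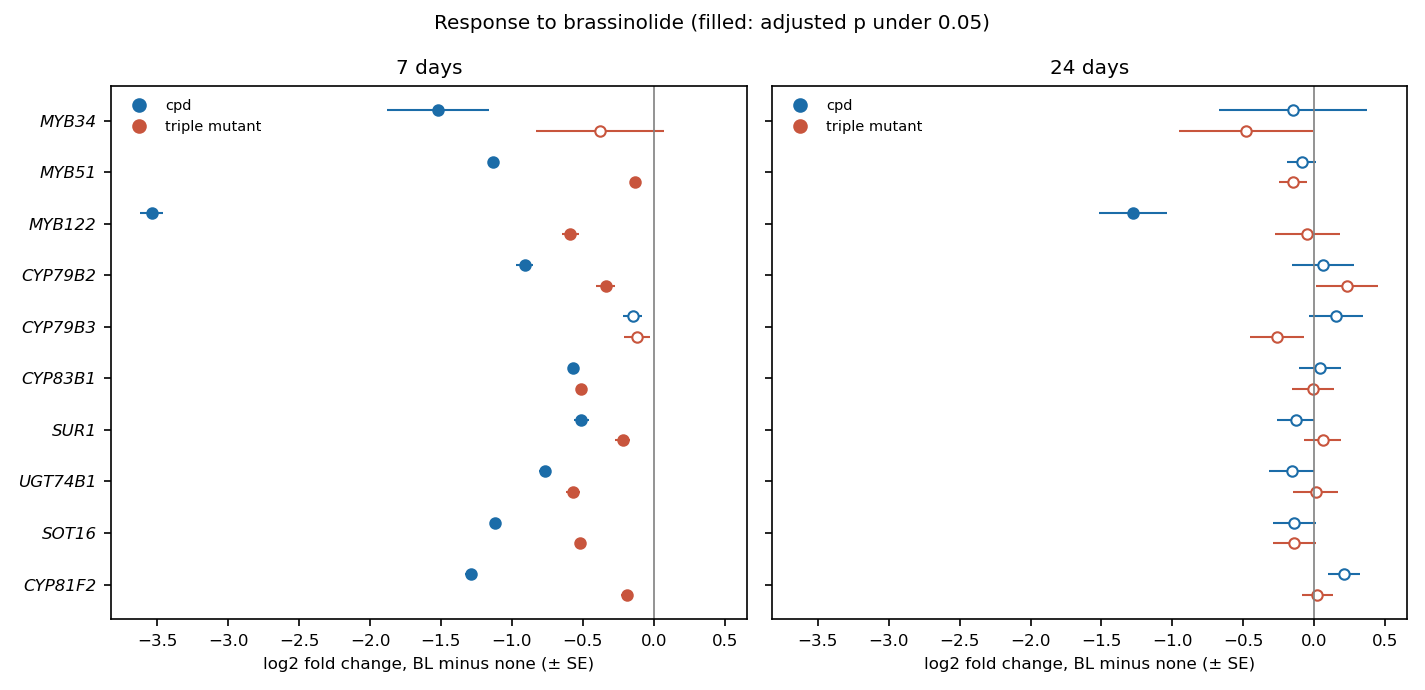
Log2 fold change with BL (x axis, BL minus none, bars ± SE) for each gene in cpd and in the triple mutant at 7 days (left) and 24 days (right); filled points have adjusted p under 0.05. At 7 days MYB122 lies at -3.54 in cpd and -0.59 in the triple mutant, and at 24 days it is the 1 filled point, at -1.28 in cpd. The filled 7-day MYB34 point in cpd is a description, because MYB34 passed the filter on low counts only through untreated cpd.

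The receptor mutant showed a shallower fall with BL at 7 days. In the triple mutant 8 of the 10 genes were lower with BL and none higher, against 11% of all genes tested that were lower and 11.4% that were higher, and none fell 2-fold. The median log2 fold change was -0.36. These falls were small, and with the spread of the 24-day libraries 0 of the 8 passed the test (adjusted p of 0.161 or more), so their call depends on the closeness of the 7-day libraries. Over all genes, those called lower went from 2018 to 46 with that spread. MYB122 read 55.3, 52.7 and 54.5 CPM without BL and 36.1, 35.1 and 36.7 CPM with it (log2 -0.59 ± 0.06, adjusted p = 9.5e-14). MYB51 read 185, 186 and 185 CPM without BL and 164, 166 and 176 CPM with it (-0.13 ± 0.03, adjusted p = 0.000827). The treated libraries lay below the untreated ones for both regulators. UGT74B1 fell by 0.57 ± 0.05 on the log2 scale, SOT16 by 0.52 ± 0.03, CYP83B1 by 0.51 ± 0.03 and CYP79B2 by 0.34 ± 0.07. SUR1 and CYP81F2 fell by 0.22 ± 0.05 and 0.19 ± 0.04. MYB34 (-0.38 ± 0.45) and CYP79B3 (-0.12 ± 0.09) did not pass the test, and their treated and untreated ranges overlapped.

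Set against each other in 1 model, the BL effects of the genotypes differed for 7 of the 10 genes, each with the weaker fall in the triple mutant, against 22.3% of all genes tested with a difference in that direction and 18.7% in the other. The difference (triple mutant minus cpd) was 2.95 ± 0.11 for MYB122 (adjusted p = 6.06e-36), 1.11 ± 0.06 for CYP81F2 (8.16e-27) and 0.99 ± 0.05 for MYB51 (4.13e-30). These 3 also passed with the spread of the 24-day libraries, at adjusted p = 4.53e-14 for MYB122, 2.2e-07 for CYP81F2 and 2.31e-06 for MYB51, and the other 4 did not. Those 4 were SOT16 (0.60 ± 0.04), CYP79B2 (0.57 ± 0.09), SUR1 (0.29 ± 0.07) and UGT74B1 (0.20 ± 0.06). Over all genes, those with a difference in this direction went from 4097 in the main test to 1111 with the 24-day spread. Without replicate 1 of the BL-treated triple mutant, UGT74B1 stood at 0.14 (adjusted p = 0.0645). For CYP83B1 the falls of -0.57 in cpd and -0.51 in the triple mutant differed by 0.06 ± 0.04 (95% interval -0.02 to 0.13, adjusted p = 0.222). CYP83B1 thus showed a fall in both genotypes with no detectable difference between them, within an interval that reaches 0.13 on the log2 scale. The interval of the difference was -0.20 to 0.26 for CYP79B3 and -0.04 to 2.33 for MYB34.

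Without BL, the triple mutant already held less of the pathway's transcripts than cpd at 7 days. Leaving out MYB34, which passed the filter through untreated cpd, 8 of the other 9 genes were lower and none higher, against 15% of all genes tested that were lower and 12.9% that were higher. The median of all 10 genes was -0.58 and that of all genes 0.002. Neighbouring lists were lower as well, with 9 of 10 aliphatic genes tested (median -0.85, 4 at least 2-fold) and 7 of 7 tryptophan supply genes (-0.40). Sulfur donors and conjugation had 4 of 5 genes lower (-0.42), and no gene of these lists was called higher. Indole ring modification had 1 of 6 genes called in each direction. CYP79B2 read 34.5, 38.2 and 37.7 CPM in the triple mutant against 59.7 ± 0.52 CPM in cpd, a difference of -0.70 ± 0.06 (adjusted p = 1.39e-17). Its paralogue CYP79B3 read 18.9, 16.1 and 15.6 CPM against 26.0 ± 1.2 CPM in cpd (-0.61 ± 0.08, adjusted p = 2.39e-09), so this gene differed between genotypes though it did not pass the test for BL. CYP83B1 stood at 361 ± 7.9 against 560 ± 5.1 CPM (-0.63 ± 0.03), UGT74B1 at 90.9 ± 2.7 against 139 ± 2.0 CPM (-0.61 ± 0.04) and SOT16 at 460 ± 8.7 against 679 ± 7.2 CPM (-0.56 ± 0.02). CYP81F2 differed by -0.46 ± 0.04, MYB51 by -0.32 ± 0.03 and SUR1 by -0.25 ± 0.05. MYB122 was the exception, at 54.2 ± 1.3 against 58.4 ± 2.9 CPM (-0.11 ± 0.05, adjusted p = 0.104), with overlapping ranges, and it passed only without replicate 3 of untreated cpd (-0.15, adjusted p = 0.045). MYB34 differed by -1.13 ± 0.35 with overlapping ranges, given as a description because it passed the filter through untreated cpd. Its call was lost by DESeq2, without replicate 1 of untreated cpd (-0.92) or without replicate 2 of the untreated triple mutant (-0.90). With the spread of the 24-day libraries 4 of the 8 stayed under the threshold, namely CYP83B1 (adjusted p = 0.0134), CYP81F2 (0.0224), UGT74B1 (0.0418) and SOT16 (0.0425). Over all genes, those called lower went from 2755 to 313 with that spread.

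**Figure D3:**
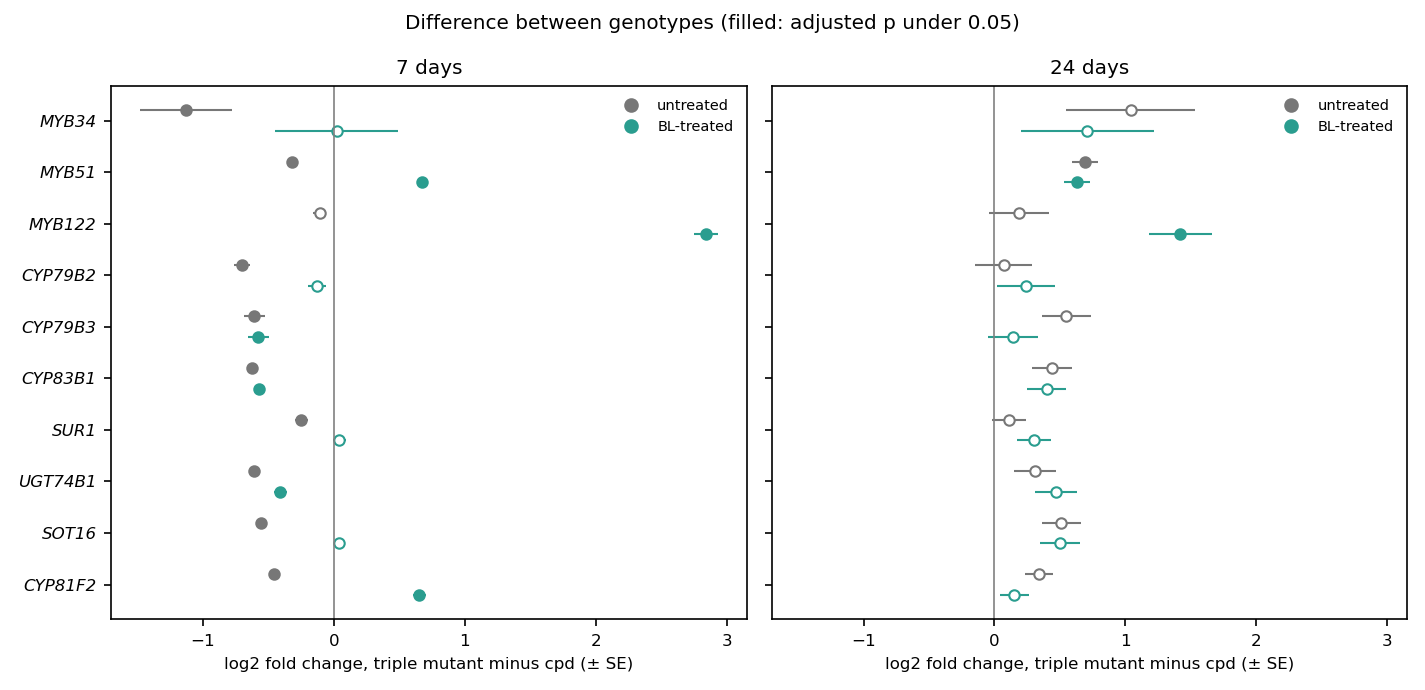
Log2 difference between genotypes (x axis, triple mutant minus cpd, bars ± SE) without BL and with BL at 7 days (left) and 24 days (right); filled points have adjusted p under 0.05. At 7 days MYB122 moves from -0.11 without BL to 2.84 with it, and at 24 days MYB51 is filled both without BL (0.69) and with it (0.63). The filled 7-day MYB34 point without BL is a description, because MYB34 passed the filter on low counts only through untreated cpd.

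With BL present at 7 days, MYB122, MYB51 and CYP81F2 were higher in the triple mutant and 3 enzyme genes were lower. MYB122 was 7.15-fold higher in the treated triple mutant than in treated cpd (log2 2.84 ± 0.09, adjusted p = 2.62e-39), MYB51 was higher by 0.67 ± 0.03 (adjusted p = 7.28e-28) and CYP81F2 by 0.65 ± 0.05 (adjusted p = 6.64e-21). These 3 of 10 higher genes compare with 27.5% of all genes tested. CYP79B3 (-0.58 ± 0.08), CYP83B1 (-0.57 ± 0.03) and UGT74B1 (-0.41 ± 0.05) were lower in the triple mutant, 3 of 10 against 25.9% of all genes, so both counts lay near the share over all genes. UGT74B1 did not pass with the spread of the 24-day libraries (adjusted p = 0.0927). SOT16 (0.04 ± 0.03), SUR1 (0.04 ± 0.05), MYB34 (0.02 ± 0.47) and CYP79B2 (-0.13 ± 0.07) did not pass, although CYP79B2 passed without replicate 1 of BL-treated cpd (-0.19, adjusted p = 0.0249). SOT16 read 313, 327 and 316 CPM in the treated triple mutant and 316, 317 and 306 CPM in treated cpd, and these ranges overlapped.

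The neighbouring steps of the pathway moved in the same comparison at 7 days. All 7 genes of tryptophan supply fell with BL in cpd (median log2 fold change -0.70), led by TSB1 and TSA1, which encode tryptophan synthase subunits (-0.84 ± 0.03 and -0.79 ± 0.03), and ASA1, the anthranilate synthase subunit that begins the branch (-0.70 ± 0.03). ASA1 went from 471 ± 7.8 to 290 ± 8.5 CPM. All 5 genes of glutathione conjugation and sulfate donor supply fell (median -0.64), among them GGP1, which trims the glutathione conjugate (-0.83 ± 0.03), and the glutathione transferase gene GSTF9 (-0.64 ± 0.03). The 3 genes that use the oxime for camalexin and related compounds also fell, with PAD3, which makes camalexin, at -1.48 ± 0.09 and CYP71A12 at -1.09 ± 0.07. Each of these values is a log2 fold change with adjusted p of 0.000666 or less, beside 29.5% of all genes tested that fell. CYP71A12 and CYP71A13, both among those 3 genes, share an identical run of 59 bases in their exons, so the split of reads between them is uncertain.

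Other parts of the pathway did not move as a block in 7-day cpd, where 29.5% of all genes tested fell and 27.7% rose. Among 6 indole ring modifying genes, 3 fell, including the methyltransferase gene IGMT2 (-0.49 ± 0.05), and IGMT1 rose (0.60 ± 0.10). IGMT1 and IGMT2 share an identical run of 71 bases in their exons, so the split of reads between these copies is uncertain. Of 7 breakdown and transport genes 5 fell and 2 rose, with the beta-glucosidase genes PYK10 and PEN2 at -0.93 ± 0.04 and -0.45 ± 0.03, while the myrosinase gene TGG2 moved by -0.17 ± 0.02. Of 6 other regulators tested out of 7 listed, 4 fell and 1 rose. SLIM1, a regulator of the response to low sulfur, fell by 0.92 ± 0.06 on the log2 scale, from 48.2 ± 2.6 to 25.6 ± 1.0 CPM, and MYC2, a partner of glucosinolate MYBs in jasmonate signalling, differed by -0.23 ± 0.03. In the aliphatic branch, which builds glucosinolates from methionine, 6 of 10 genes tested fell, 3 of them at least 2-fold, and 1 rose at least 2-fold. The chain elongation gene MAM1 stood at -0.96 ± 0.08 and the sulfotransferase gene SOT17 at -0.68 ± 0.07.

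**Figure D4:**
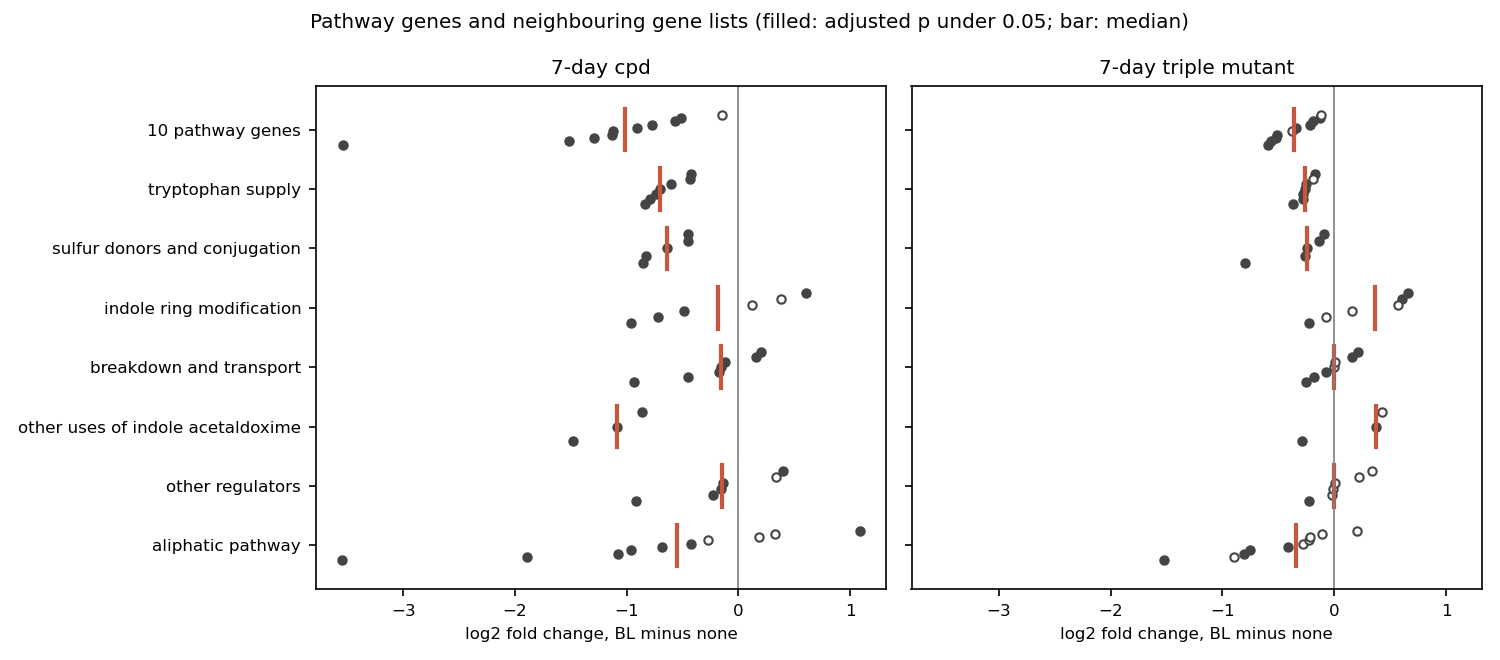
Log2 fold change with BL (x axis) of each gene of the 10-gene pathway and of 7 neighbouring gene lists at 7 days, cpd in the left panel and the triple mutant in the right; filled points have adjusted p under 0.05 and the bar is the list median. In cpd the medians are -1.02 for the 10 pathway genes, -0.70 for tryptophan supply and -0.64 for sulfur donors and conjugation, against -0.36, -0.26 and -0.24 in the triple mutant. MYB34 is drawn filled in cpd as a description, because it passed the filter on low counts only through untreated cpd.

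In the 7-day triple mutant most of these supply genes were lower with BL as well. Tryptophan supply had 6 of 7 genes lower with BL (median -0.26, ASA1 -0.25 ± 0.03) and sulfur donors and conjugation 5 of 5 (median -0.24), beside 11% of all genes. APK2, a kinase that makes the sulfate donor, fell by 0.80 ± 0.06 on the log2 scale. PAD3 went the other way, from 17.6 ± 1.1 to 22.8 ± 0.75 CPM (0.37 ± 0.08). The log2 change with BL was higher in the triple mutant than in cpd for 5 of 7 tryptophan supply genes, 4 of 5 sulfur donor and conjugation genes and 3 of 3 genes of other oxime uses, beside 22.3% of all genes tested. PAD3 differed by 1.86 ± 0.12, PYK10 by 1.09 ± 0.06 and SLIM1 by 0.91 ± 0.09 in this comparison. In the aliphatic branch 1 of 10 genes differed in each direction.

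Across the 24 libraries, after each age's mean of log2 CPM was removed, the mean profile of the 10 genes was most like that of the 4-coumarate ligase family gene 4CL5 (Pearson r = 0.97), ASA1 (0.96), UXS4 and the transaldolase gene TRA2 (0.94 each) among 14764 genes ranked. MYB51 was most like STZ and ERF4, zinc finger and ethylene response factor genes (0.98 and 0.96), MYB122 most like SRG1 (0.98), and MYB34 most like the aliphatic pathway gene BCAT4 and PBP1 (0.85 each). Of the 10 genes, SOT16 followed their mean most closely (0.96), and MYB122 (0.64) and CYP79B3 (0.61) least. These correlations describe 24 libraries that share 8 groups and library depth, and the genes were part of the mean they were compared with.

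At 24 days MYB122 in cpd was the gene of the 10 that passed the test for BL. In cpd MYB122 read 19.4, 16.4 and 25.6 CPM without BL and 6.97, 7.68 and 10.6 CPM with it, with every treated library below every untreated one. Its fall was 2.43-fold (log2 -1.28 ± 0.24, adjusted p = 0.00614), and it was the 1 gene of 10 that was lower, beside 5.18% of all 19731 genes tested, while none was higher, beside 4.54%. MYB51 read 256, 275 and 263 CPM without BL and 223, 244 and 279 CPM with it, overlapping ranges with a difference of -0.09 ± 0.10. The median over the 10 genes was -0.11. SOT16 moved by -0.14 ± 0.15 (95% interval -0.46 to 0.19) and CYP81F2 by 0.21 ± 0.11 (-0.02 to 0.44). Those intervals do not reach the 7-day falls of -1.12 and -1.29. CYP83B1 read 443, 450 and 484 CPM without BL and 379, 477 and 559 CPM with it, and UGT74B1 read 92.7, 99.3 and 101 CPM without BL and 67.4, 86.6 and 109 CPM with it. For both genes the treated libraries spread to either side of the untreated ones. In the triple mutant 0 of 10 genes passed, with 0 at unadjusted p under 0.05 and 0 by DESeq2, and over all genes (0% called in either direction) edgeR's quasi-likelihood test called 0, DESeq2 0, and 773 had unadjusted p under 0.05. MYB122 in the triple mutant read 23.5, 18.4 and 27.4 CPM without BL and 22.0, 16.5 and 28.6 CPM with it (-0.05 ± 0.23), so the ranges overlapped. The BL effect on MYB122 differed between genotypes at 24 days by 1.23 ± 0.33 without passing the test (adjusted p = 0.0743). Of the 10 genes 0 were called higher beside 1.59% of all genes and 0 lower beside 1.16%. At unadjusted p under 0.05 there was 1 of 10, beside 16.7% of all genes. MYB122 was called by DESeq2 (1.22, adjusted p = 0.0112) or without replicate 2 of the BL-treated triple mutant (1.40, adjusted p = 0.0487). It was also called with replicate number as a block (1.21, adjusted p = 0.00109), though whether the numbers pair the libraries was not settled. Without replicate 3 of every 24-day group it was not called (1.16, adjusted p = 0.0747).

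At 24 days MYB51 was higher in the triple mutant, whereas it was lower there at 7 days without BL. The difference between those ages was not tested. The other regulators did not pass without BL at 24 days (MYB122 0.19 ± 0.23, adjusted p = 0.682, and MYB34 1.04 ± 0.49, adjusted p = 0.272). Untreated, MYB51 read 451, 441 and 377 CPM in the triple mutant against 256, 275 and 263 CPM in cpd. Each triple mutant library was above each cpd library (log2 0.69 ± 0.10, adjusted p = 0.0103), and this was the 1 of 10 genes called higher, beside 0.791% of all genes, with none lower beside 0.253%. The call was lost without replicate 1 of untreated cpd (0.67, adjusted p = 0.0804) or replicate 1 of the untreated triple mutant (0.65, adjusted p = 0.0528). Same-numbered libraries deviated together from their group means at 24 days, but this did not settle that the numbers pair them. Between the untreated genotypes, same-numbered libraries correlated at 0.13, 0.244 and 0.369, and replicate 2 of cpd at 0.281 with replicate 1 of the triple mutant. With replicate number as a block, 5 of 10 genes were higher in the untreated triple mutant, beside 992 of all 19731 genes. SOT16 (0.50, adjusted p = 0.0175), CYP81F2 (0.34, 0.0316), CYP83B1 (0.44, 0.0362) and CYP79B3 (0.54, 0.0418) were added to MYB51. With DESeq2 3 were higher, beside 760 of all genes.

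With BL at 24 days, 2 of 10 genes were higher in the triple mutant, beside 5.6% of all genes, and none lower, beside 5.48%. MYB51 read 401, 373 and 372 CPM against 223, 244 and 279 CPM in cpd (log2 0.63 ± 0.10, adjusted p = 0.00193), and MYB122 read 22.0, 16.5 and 28.6 CPM against 6.97, 7.68 and 10.6 CPM (1.42 ± 0.24, adjusted p = 0.00294). The ranges of both regulators were apart. With the replicate block 6 were higher, beside 1899 of all 19731 genes, SOT16 (0.49, adjusted p = 0.00599), UGT74B1 (0.48, 0.0233), CYP83B1 (0.40, 0.0252) and SUR1 (0.31, 0.032) being added. Without replicate 3 of BL-treated cpd, UGT74B1 (0.66, adjusted p = 0.0275), MYB34 (1.65, 0.0446) and SUR1 (0.45, 0.0471) gained a call. Without replicate 1 of the BL-treated triple mutant, SOT16 (0.62, adjusted p = 0.029), CYP83B1 (0.53, 0.0402) and UGT74B1 (0.61, 0.0432) did. At 24 days MYB122 and SUR1 were highest in replicate 3 in 4 of 4 groups, as were the summed root markers, and CYP81F2 in 0 of 4, and the part of root tissue in these levels was not tested. Without replicate 3 of every 24-day group, the fall of MYB122 in cpd was -1.28 (adjusted p = 0.00975), and MYB51 was higher in the triple mutant by 0.77 without BL (adjusted p = 0.00848) and by 0.75 with it (0.00408).

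The fall with BL in cpd was weaker at 24 than at 7 days for 7 of the 10 genes, beside 5.51% of all 19935 genes with a difference in that direction and 4.16% in the other. The difference (24 minus 7 days) was 2.25 ± 0.28 for MYB122 (adjusted p = 3.98e-05), 1.50 ± 0.11 for CYP81F2 (7.33e-08) and 1.03 ± 0.10 for MYB51 (2.64e-06). It was 0.98 ± 0.15 for SOT16, 0.97 ± 0.25 for CYP79B2, 0.61 ± 0.16 for CYP83B1 and 0.61 ± 0.18 for UGT74B1. The call of UGT74B1 (adjusted p = 0.0339) was lost without replicate 3 of every 24-day group (0.45, adjusted p = 0.0625) and when any of 10 of the 12 cpd libraries was left out. MYB34 (1.36 ± 0.71), SUR1 (0.36 ± 0.15, adjusted p = 0.129) and CYP79B3 (0.29 ± 0.21) did not pass, although SUR1 passed without replicate 1 of 24-day BL-treated cpd (0.48, adjusted p = 0.0289). In the triple mutant 0 of 10 genes differed between ages in their BL effect, beside 0.015% of all genes upward and 0.0602% downward. At unadjusted p under 0.05 there were 5 of 10, beside 9.65% of all genes. DESeq2 called 0 of 10, beside 63 of all genes. Libraries of the ages carry different naming series in the labels, so age and library series cannot be told apart.

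Between 7 and 24 days the genes moved in different directions. Of 6 root markers tested, 5 were higher at 24 days in untreated cpd (median log2 2.42) and 6 in the untreated triple mutant (4.19). The part of root tissue in the differences between ages was not tested. In untreated cpd 2 of 10 genes were higher at 24 than at 7 days and 6 lower, beside 34.9% of all genes in each direction. CYP79B3 rose from 26.0 ± 1.2 to 62.8 ± 3.7 CPM (log2 1.27 ± 0.15, adjusted p = 2.41e-07), whereas its paralogue CYP79B2 stood at 59.7 ± 0.52 and 63.1 ± 9.6 CPM (0.08 ± 0.17). MYB122 fell by 1.51 ± 0.17, SOT16 by 1.18 ± 0.11 and CYP81F2 by 0.85 ± 0.08 on the log2 scale, UGT74B1 and SUR1 by 0.50 ± 0.13 and 0.50 ± 0.10, and CYP83B1 by 0.29 ± 0.11. The call of CYP83B1 was lost without replicate 1 or 3 of 7-day untreated cpd (-0.27, adjusted p = 0.0676 and 0.0606) or replicate 1 or 2 of the 24-day group (-0.26 and -0.27, adjusted p = 0.0771 and 0.0678). MYB51 was higher by 0.19 ± 0.07, a call that was lost without replicate 2 of untreated cpd at 7 days (0.19, adjusted p = 0.0539) or at 24 days (0.17, adjusted p = 0.0741).

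In the untreated triple mutant 6 of 10 genes were higher at 24 days, beside 34.9% of all genes, and MYB122 was lower (-1.23 ± 0.17, adjusted p = 2.06e-06), beside 34.5%. CYP79B3 rose 5.39-fold, from 16.9 ± 1.8 to 91.2 ± 17.0 CPM (2.43 ± 0.16, adjusted p = 2.96e-11). MYB51 rose from 186 ± 0.47 to 423 ± 40.0 CPM (1.19 ± 0.07), CYP79B2 by 0.84 ± 0.18, CYP83B1 by 0.78 ± 0.11 and UGT74B1 by 0.40 ± 0.13. MYB34 rose by 1.76 ± 0.48 to 2.63 ± 0.78 CPM, still the least abundant of the regulators. That rise rests on 8, 5 and 13 counts in the 7-day libraries, and the part of root tissue in it was not tested. SUR1 (-0.15 ± 0.10), SOT16 (-0.12 ± 0.11) and CYP81F2 (-0.06 ± 0.08) did not pass. Per kilobase, CYP79B2 stood at 1.91 to 2.54 times CYP79B3 in the untreated triple mutant at 7 days and at 0.571 to 1.01 times at 24 days.

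Over all 8 groups the genes differed in how far their levels ranged. The highest group mean was 11.6 times the lowest for MYB122, 5.88 times for CYP79B3, 4.49 times for MYB34 on few counts and 3.95 times for MYB51, and 1.55 times for SUR1, the least variable. The order for MYB51 ran from the untreated 24-day triple mutant down to BL-treated 7-day cpd, with overlapping libraries between 3 of its 7 neighbouring pairs of groups, namely between the treatments within each genotype at 24 days and between BL-treated 24-day and untreated 7-day cpd. MYB122 ran from untreated to BL-treated 7-day cpd, and its overlapping neighbours were the untreated 7-day genotypes and the groups from 16.4 to 28.6 CPM at 24 days. All 7 neighbouring pairs overlapped for MYB34. SUR1 and SOT16 overlapped in 6 of 7, CYP79B2 and UGT74B1 in 5 of 7, and CYP79B3, CYP83B1 and CYP81F2 in 4 of 7. SOT16, SUR1, UGT74B1, CYP81F2 and MYB122 had their highest mean in untreated 7-day cpd, whereas MYB34, MYB51, CYP79B3 and CYP83B1 had it in the untreated 24-day triple mutant and CYP79B2 in the BL-treated 24-day triple mutant.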

How the data were processed

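Read counts per gene locus were deposited by the authors as whole numbers, 1 column for each of 24 libraries. Trimmomatic 0.36, HISAT2 2.1.0, HTSeq 0.9.1 and TAIR10 are named in the submitters' processing notes, without their settings. The genotype label spells the first allele brl1-701, and the design text bri1-701, which was followed. The labels do not say whether the 3 libraries of a group are separate growths, so p-values rest on a spread between libraries that may be technical. Names and sequences come from RefSeq TAIR10.1, matched by locus.

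Genes were kept by filterByExpr (minimum count 10), scaled with TMM and tested in a cell-means model with edgeR 4.0.16 (R 4.3.3), each age on its own (12 libraries) and all 24 for comparisons of ages, with Benjamini-Hochberg adjustment and a threshold of 0.05. SE is the absolute log2 fold change over the square root of F. The 10 genes and the lists were chosen with earlier results of these data known. Up to 3 genes of each list with the smallest adjusted p were named, and likeness was ranked over genes averaging 5 CPM or more. A count of 0 allows up to 3 counts (0.239 to 0.295 CPM at 7 days, 0.146 to 0.174 CPM at 24), counting error only. Alternatives were DESeq2 1.42.0, its size factors, no filter, a replicate block, leaving libraries out and, for 7 days, the 24-day spread. That last setting held the spread fixed and used edgeR's likelihood-ratio test, so it differs from the main test in more than the spread. Same-numbered libraries deviated together at 24 days (correlations 0.083 to 0.616, all over 0.1 within each comparison of 2 groups), and not at 7 days (-0.042 to 0.041). Differently numbered 24-day libraries correlated at -0.538 to 0.281, so pairing by number was not settled there and the block is given as an alternative.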

Additional observations from a re-analysis of the deposited data

Results flagged for a closer look

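The BL effect differed between genotypes at 7 days by a test of the difference itself (triple mutant minus cpd, log2) for MYB122 (2.95), CYP81F2 (1.11), MYB51 (0.99), SOT16 (0.60), CYP79B2 (0.57), SUR1 (0.29) and UGT74B1 (0.20). It differed between ages in cpd in the same kind of test (24 minus 7 days) for MYB122 (2.25), CYP81F2 (1.50), MYB51 (1.03), SOT16 (0.98), CYP79B2 (0.97), CYP83B1 (0.61) and UGT74B1 (0.61). Groups of 3 libraries are too small for a check of outlying samples.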

How the results depend on the processing

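Of 1780 recomputed values of single genes, 1704 kept their side of the threshold, 44 lost and 32 gained a call. Among the 1704, 58 values called in neither setting changed sign, and 0 called values changed sign. With the 24-day spread, 0 genes were lower with BL in the 7-day triple mutant, 4 lower in the untreated 7-day triple mutant and 3 had a different BL effect between genotypes at 7 days. In the same directions the counts over all genes were 46, 313 and 1111. With the replicate block, 5 were higher in the untreated and 6 in the BL-treated 24-day triple mutant, and 1 (MYB122, 1.21, adjusted p = 0.00109) had a higher BL effect in the triple mutant at 24 days. Whether the numbers pair the libraries of these 4 groups was not settled. In comparisons of ages, the block (within each age) gave 1 gene with a BL effect in the triple mutant that was higher at 24 days, 1 higher with age in untreated cpd and 3 lower with age in the untreated triple mutant (SUR1 -0.33 and SOT16 -0.26 added), where UGT74B1 (0.19) and MYB34 (1.20) were no longer called higher, and it moved no other count of these genes by over 1.5 times. For the untreated comparisons of ages, the block's estimate was the fitted difference at replicate 1 of each age, so it is not the same quantity as the main value. DESeq2 gave 3, 4 and 1 in the first 3 of the block's comparisons. Without replicate 3 of every 24-day group, 1 gene had a higher BL effect at 24 days in the triple mutant and 2 were lower with age there. Leaving out 1 library at a time gave 0 to 1 higher in the untreated and 2 to 5 in the BL-treated 24-day triple mutant, 0 to 1 for the difference of BL effects between genotypes at 24 days, 0 to 1 for that between ages in the triple mutant, and 1 to 2 higher with age in untreated cpd. The cause was not tested. DESeq2's size factors shifted the log2 fold changes of all genes by a median of at most 0.033 in any comparison. Depth limited MYB34, with 5 to 25 counts per 7-day library.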
